A study of Mus musculus with 14 samples.

Results

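Class III phosphatidylinositol 3-kinase (Vps34) makes phosphatidylinositol 3-phosphate (PI3P), a lipid that marks endosomes and the membranes from which autophagosomes form. The kinase works in 2 assemblies that share the catalytic subunit Vps34 (encoded by Pik3c3), the regulatory kinase Vps15 (Pik3r4) and the scaffold Beclin 1 (Becn1). Atg14 joins this core in the assembly that serves autophagy, together with the stabilizing subunit Nrbf2, while Uvrag takes the place of Atg14 in the assembly that serves endosomal traffic. Ambra1 binds Beclin 1 and promotes autophagy, and Rubcn (Rubicon) binds the Uvrag-containing assembly and restrains it. In Tregs, Atg14 was deleted in the study, so the chromatin of the loci of Atg14 and its 7 partners was described here.

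The loci were taken from the deposited ATAC-seq table, which counts nucleosome-free reads in 67254 accessible regions. A region was assigned to one of the 8 genes if that gene had the nearest protein-coding transcription start to the midpoint of the region, or if the midpoint lay within the body of the gene. Of the 67254 regions, 50 were assigned in this way, 28 by both criteria, 13 by the nearest start alone and 9 by the gene body alone. Uvrag held 23 of them, Ambra1 7, Atg14 5, Nrbf2 5, Pik3c3 4, Pik3r4 3, Rubcn 2 and Becn1 1. After the filter on low counts 42 regions were tested, and 8 were not (3 each at Uvrag and Ambra1, and 1 each at Pik3c3 and Pik3r4). The promoter class (midpoint within 1000 bp of a start of the gene) held 9 regions, all tested, with 2 at Rubcn and 1 at each other gene. By their midpoints, the other 41 regions lay mostly in introns (30), with 10 outside the genes and 1 in the last exon of Atg14. Regions are named by gene and by distance of the midpoint from a protein-coding start of the gene, so that Uvrag +53.9 kb lies 53.9 kb into Uvrag.

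The 14 libraries came from splenic Tregs of mixed BM chimeras, in which CD45.2+ BM of control (Foxp3Cre Atg14+/fl) or Foxp3Cre Atg14fl/fl mice was mixed with CD45.1+ WT BM in equal parts and given to Rag1-/- mice that had been irradiated at a sublethal dose, with 6 to 8 weeks for reconstitution. The mice were of both sexes on the C57BL/6 background, and the ages of these donors are not given in the labels. The donor-derived CD45.2+ cells were sorted as cTregs (CD4+Foxp3-YFP+CD44-CD62L+) or eTregs (CD4+Foxp3-YFP+CD44+CD62L-), which gave 3 control and 4 Atg14-deficient libraries of each state. All donors of the sorted cells carried the Foxp3-driven Cre, and the methods for these libraries give the controls 1 floxed Atg14 allele, so that 2 floxed alleles are compared with 1. The study's text elsewhere allows chimera controls with no floxed allele and, in some experiments, Atg14fl/fl mice with an Atg14-null allele, and the labels do not say which alleles these donors carried. Total counts ranged from 2242983 to 5548189 per library, and the libraries were scaled to their totals as CPM. Foxp3 and Cd4 each had 1 accessible region, within the gene, with means of 18.1 and 30.0 CPM over the libraries, and none of the 5 fixed B cell markers had a promoter region. A region was called at the unadjusted threshold if edgeR's quasi-likelihood test gave p under 0.05 and the log2 fold change exceeded 0.5 in size, and at the adjusted threshold if the Benjamini-Hochberg value over all 61366 tested regions was also under 0.05. The 2 fixed myeloid promoter regions summed to 7.58 to 22.2 CPM per library. Nothing in the labels says whether same-numbered libraries share a mouse, and p-values measure the spread between libraries.

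The sequences on which the results turn are those of 5 regions inside Uvrag and Atg14 that passed the unadjusted threshold in 1 or 2 of the genotype tests, and those just upstream of Atg14 (the deleted gene) and of Pik3r4 (the promoter that differed between cell states). They are shown in lower case on GRCm38, the first 5 on the forward strand of the genome and the last 2 on the strand of the gene, the latter from the RefSeq promoter table. Capitals mark matches on either strand to 10 short motifs that were searched in all windows, namely AP-1 (TGANTCA), CRE (TGACGTCA), the E-box (CACGTG), the ETS core (CCGGAAG), TCF/LEF (CTTTGAT), RUNX (TGTGGT), FOXO/FOXP (GTAAACA), the CCAAT box (CCAAT), the GC box (GGGCGG) and YY1 (AAGATGGC).
Uvrag +53.9 kb, chr7:99087050-99087349: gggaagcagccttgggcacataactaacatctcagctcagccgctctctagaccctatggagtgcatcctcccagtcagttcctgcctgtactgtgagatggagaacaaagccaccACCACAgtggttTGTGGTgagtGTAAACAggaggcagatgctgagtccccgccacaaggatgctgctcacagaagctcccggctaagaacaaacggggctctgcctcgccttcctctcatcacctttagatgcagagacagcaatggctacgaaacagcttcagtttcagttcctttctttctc
Uvrag +20.1 kb, chr7:99120864-99121163: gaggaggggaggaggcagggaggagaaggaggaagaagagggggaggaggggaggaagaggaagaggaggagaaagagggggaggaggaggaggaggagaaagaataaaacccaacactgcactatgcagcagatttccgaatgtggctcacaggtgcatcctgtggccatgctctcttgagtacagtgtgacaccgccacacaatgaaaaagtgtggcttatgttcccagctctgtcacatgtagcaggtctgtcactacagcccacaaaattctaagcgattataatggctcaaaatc
Uvrag +91.1 kb, chr7:99049938-99050237: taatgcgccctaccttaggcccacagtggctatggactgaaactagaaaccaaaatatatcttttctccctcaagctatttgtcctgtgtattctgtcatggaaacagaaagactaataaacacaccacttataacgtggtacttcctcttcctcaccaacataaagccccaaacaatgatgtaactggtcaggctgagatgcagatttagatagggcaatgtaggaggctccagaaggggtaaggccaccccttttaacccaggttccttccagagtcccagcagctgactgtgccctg
Atg14 +22.4 kb, chr14:47545863-47546162: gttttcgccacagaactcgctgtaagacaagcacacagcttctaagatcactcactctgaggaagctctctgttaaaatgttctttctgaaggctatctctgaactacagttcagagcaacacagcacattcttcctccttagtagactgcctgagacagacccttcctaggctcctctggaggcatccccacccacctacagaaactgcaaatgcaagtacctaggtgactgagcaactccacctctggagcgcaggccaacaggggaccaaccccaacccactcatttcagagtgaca
Atg14 +16.9 kb, chr14:47551389-47551688: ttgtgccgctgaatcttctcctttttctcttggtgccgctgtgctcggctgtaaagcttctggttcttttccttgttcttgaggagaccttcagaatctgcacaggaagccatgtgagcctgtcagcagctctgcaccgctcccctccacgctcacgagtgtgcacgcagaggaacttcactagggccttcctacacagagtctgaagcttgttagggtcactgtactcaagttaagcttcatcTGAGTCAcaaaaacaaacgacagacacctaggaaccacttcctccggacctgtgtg
Atg14 upstream, chr14:47568435-47568684: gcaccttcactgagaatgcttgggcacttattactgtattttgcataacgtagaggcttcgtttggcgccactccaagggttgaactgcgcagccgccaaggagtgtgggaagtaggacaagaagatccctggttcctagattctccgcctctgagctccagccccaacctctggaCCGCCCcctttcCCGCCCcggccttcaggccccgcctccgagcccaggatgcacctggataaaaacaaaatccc
Pik3r4 upstream, chr9:105642745-105642994: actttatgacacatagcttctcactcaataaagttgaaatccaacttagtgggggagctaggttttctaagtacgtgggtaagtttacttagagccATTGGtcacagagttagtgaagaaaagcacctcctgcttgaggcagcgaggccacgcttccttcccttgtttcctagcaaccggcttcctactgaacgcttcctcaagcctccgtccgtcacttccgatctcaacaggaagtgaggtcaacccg

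The Uvrag +53.9 kb window held 2 matches to RUNX and 1 to FOXO/FOXP. Of the windows of all non-promoter regions, 33.8% held at least 1 match to RUNX and 5.09% at least 1 to FOXO/FOXP. The Atg14 +16.9 kb window held 1 match to AP-1, present in 17.2% of such windows. The windows of Uvrag +20.1 kb, Uvrag +91.1 kb and Atg14 +22.4 kb held none of the 10 motifs. The 250 bases before the Atg14 start held 2 GC boxes, and those before the Pik3r4 start held 1 CCAAT box. Of all such promoter stretches, 32.7% held at least 1 GC box and 33.9% at least 1 CCAAT box. A match describes the letters of the window and is not evidence of binding.

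The promoters of the 8 genes were open in all 14 libraries, at levels that differed widely between genes. Per kb of region, the Uvrag promoter had the highest accessibility (277 ± 23.3 CPM per kb, SD over 14 libraries), followed by those of Pik3c3 (209 ± 23.5), Pik3r4 (121 ± 34.7) and Nrbf2 (69.7 ± 9.04 CPM per kb). The 2 Rubcn promoters followed at 57.3 ± 10.6 (upstream) and 52.6 ± 6.88 CPM per kb (downstream), then Atg14 at 34.7 ± 7.11, Becn1 at 19.3 ± 5.72 and Ambra1 at 18.4 ± 3.53 CPM per kb. Among the 14281 tested promoter regions of the genome, with a median of 40.3 CPM per kb, Uvrag stood at the 98.9th percentile, Pik3c3 at the 96.8th, Atg14 at the 43.9th and Ambra1 at the 20.9th. Neighbours in this order differed by more than the larger SD of the pair, except the 2 Rubcn promoters and the pair of Becn1 and Ambra1, in each of which the higher was above the lower in 8 of 14 libraries. This order is of means over all 14 libraries, and in control eTregs the upstream Rubcn promoter (62.4 CPM per kb) was slightly above that of Nrbf2 (61.3 CPM per kb). Promoters of subunits that sit in the same core thus ranged from 19.3 (Becn1) to 209 CPM per kb (Pik3c3).

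**Figure D1:**
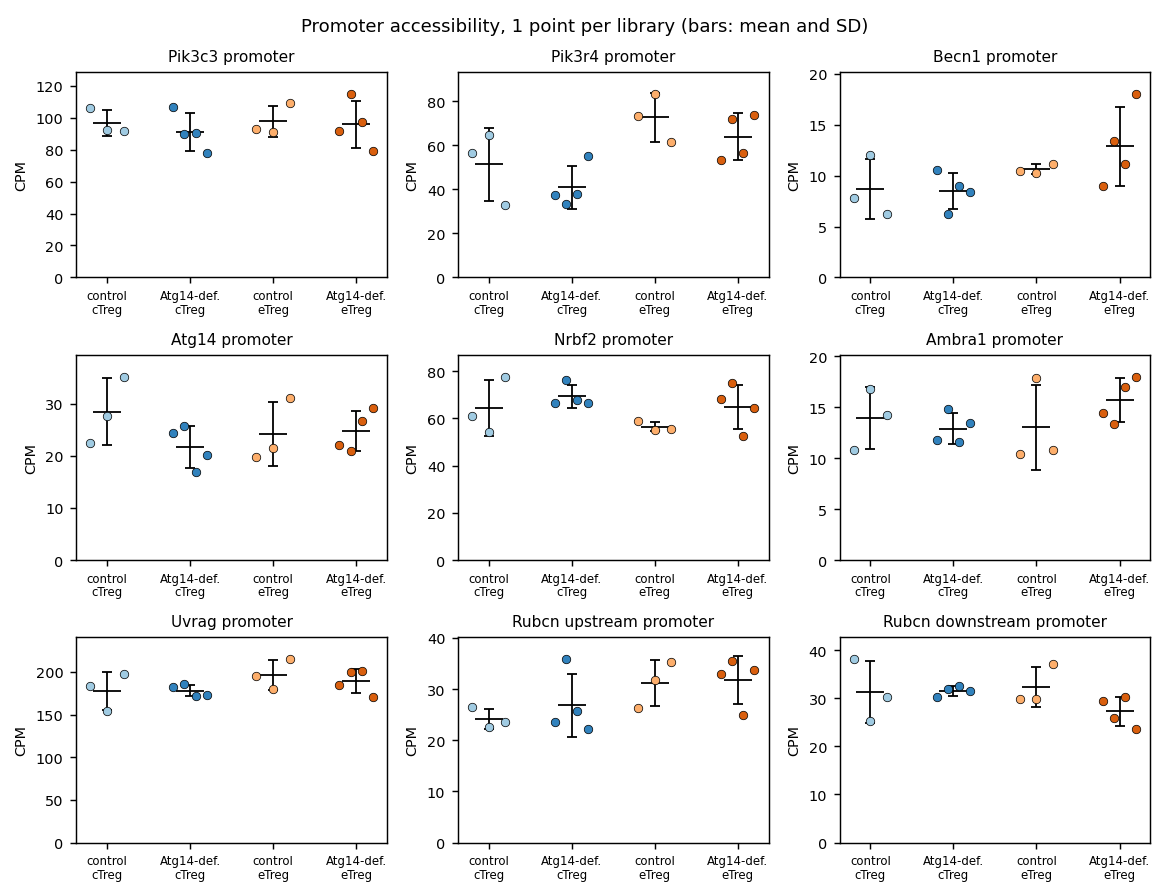
Accessibility (CPM, y axis from 0) of the 9 promoter regions in each library, by group on the x axis (def., deficient); horizontal bars give the mean and whiskers the SD of a group. The control and Atg14-deficient libraries of each cell state overlap at every promoter, and the Pik3r4 promoter is higher in eTregs than in cTregs on average in both genotypes.

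None of the promoters of the 8 genes passed either threshold with the loss of Atg14, in eTregs or in cTregs. In eTregs the log2 fold changes of the 9 promoters lay between -0.25 (Rubcn downstream) and 0.28 (Becn1 and Ambra1), with standard errors of 0.10 to 0.30, and in cTregs between -0.38 (Atg14) and 0.14 (Rubcn upstream), with standard errors of 0.11 to 0.32. All 9 approximate intervals at 95% (1.96 standard errors to each side) stayed within a log2 fold change of 1 in both states. Their outer bounds were 0.657-fold and 1.83-fold in eTregs and 0.564-fold and 1.48-fold in cTregs. In cTregs the Atg14 promoter passed the unadjusted threshold without control replicate 1 (log2 fold change -0.53), and the Pik3r4 promoter did so without control replicate 3 (-0.56) or Atg14-deficient replicate 4 (-0.52). Fewer cells with an open region and a less open region in each cell cannot be told apart in such bulk libraries. In no comparison of control with Atg14-deficient libraries were all libraries of one group above all of the other at a promoter.

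Over all 42 tested regions, Atg14 loss in eTregs gave 3 regions past the unadjusted threshold, all more accessible, which is 7.14% of the regions against 6.36% of all regions tested. The 3 regions were Uvrag +53.9 kb, Uvrag +20.1 kb and Atg14 +22.4 kb, and none passed the adjusted threshold, which 0.0228% of all regions passed. The median log2 fold change was 0.02 over the 42 regions and 0.06 over all regions, and 22 of the 42 were above 0. Of all regions called in eTregs, 2818 were more and 1084 less accessible with total-count scaling, and 2280 of 3792 were more accessible with TMM normalization, but the same 3 regions were called under both. In cTregs 1 of the 42 regions passed the unadjusted threshold, Atg14 +16.9 kb, more accessible (2.38% against 3.34% of all regions), and 0 passed the adjusted threshold (0.0163% of all regions). The DESeq2 Wald test called the same 3 regions in eTregs and the same 1 in cTregs. The median in cTregs was 0.10 over the 42 regions and 0.03 over all. Both shares are close to those of all regions. The cTreg count rested on single libraries, since it was 0 without Atg14-deficient replicate 1 and 3 without control replicate 1, control replicate 3 or Atg14-deficient replicate 4 of the cTregs, and the eTreg count was 2 without control eTreg replicate 3.

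**Figure D2:**
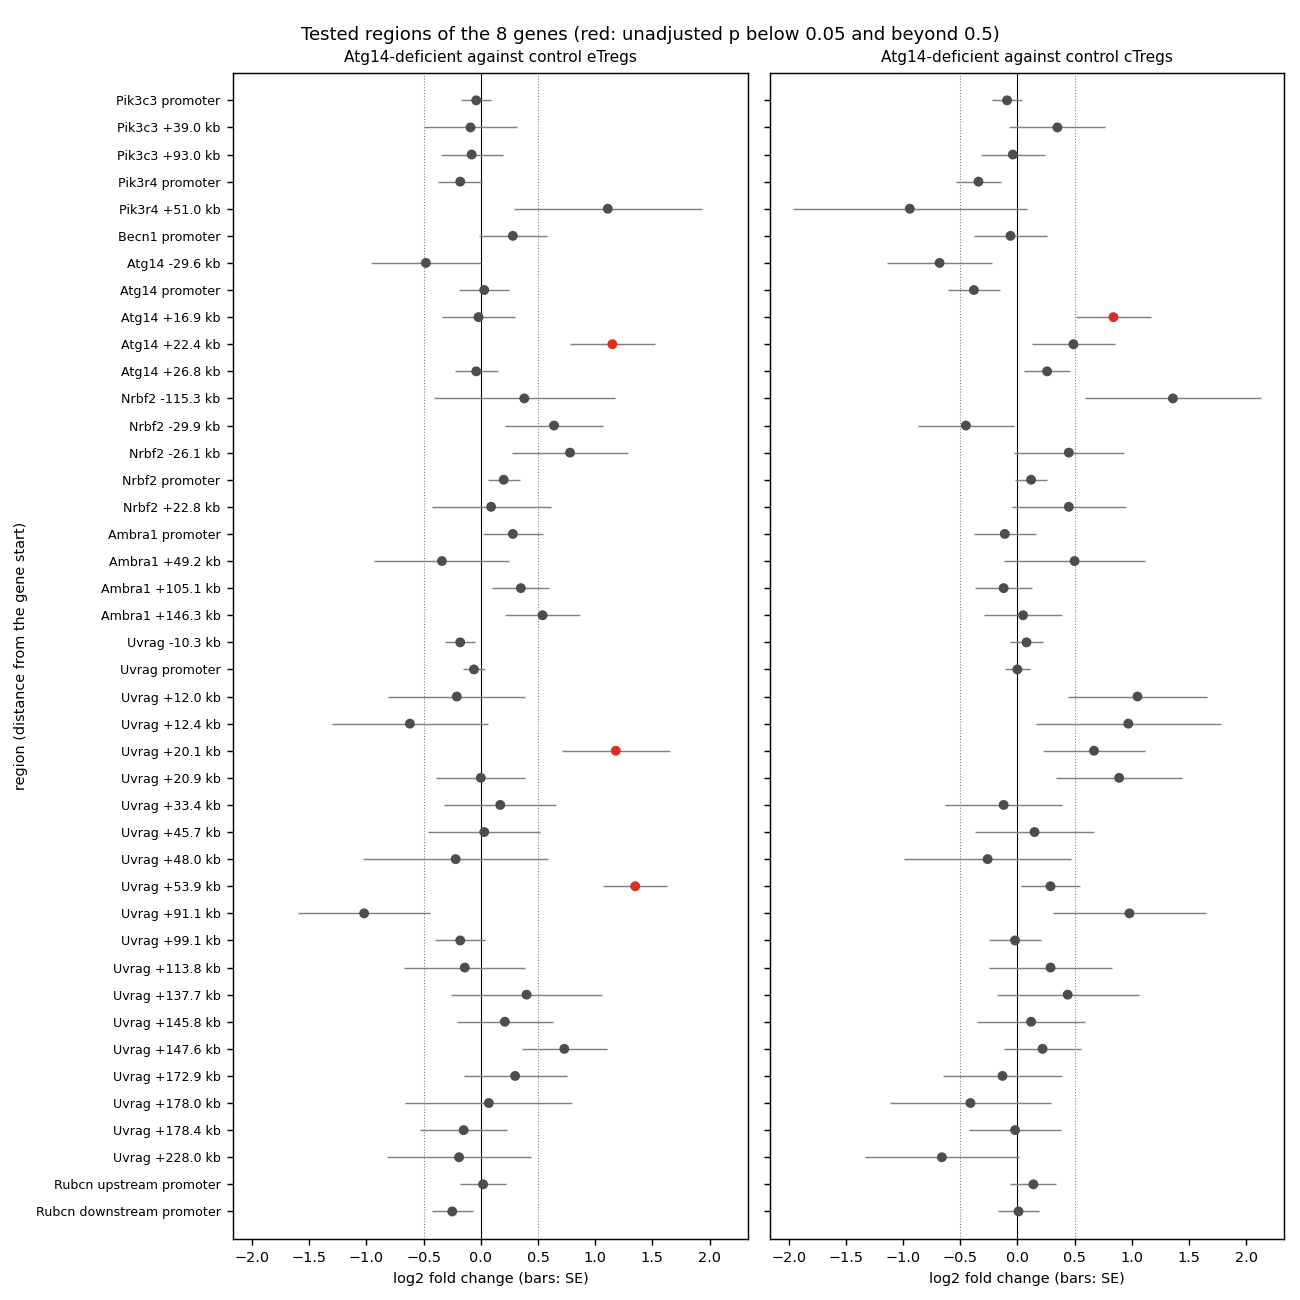
Log2 fold change of Atg14-deficient against control libraries (x axis; whiskers, SE) for the 42 tested regions, ordered by gene and position, in eTregs (left) and cTregs (right); dotted lines mark 0.5 in each direction and red points passed the unadjusted threshold. The 3 red points in eTregs and the 1 in cTregs are non-promoter regions of Uvrag and Atg14 on the more accessible side, and the promoters lie close to 0 with short whiskers.

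Groups that do not overlap were counted as a description. In eTregs 6 of the 42 regions had all Atg14-deficient libraries on one side of all control libraries (8.48% of all regions), 5 of them above (the 3 called regions, Nrbf2 -26.1 kb and Pik3r4 +51.0 kb, the last kept by the low-count filter only through Atg14-deficient eTregs) and 1 below (Uvrag +91.1 kb). In cTregs 4 regions did so, all above (5.50% of all regions), namely Atg14 +16.9 kb and the Uvrag regions at +12.0, +20.1 and +20.9 kb. Uvrag +20.1 kb was the only one of the 42 that was above in both states, and the share of all regions above in both was not counted.

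The genotype difference with the lowest p-value at these loci was at Uvrag +53.9 kb, a region of 513 bp in an intron of Uvrag (chr7:99086943-99087455), the gene of the subunit that takes the place of Atg14. In control eTregs its accessibility was 6.51, 10.5 and 9.01 CPM in replicates 1 to 3, and in Atg14-deficient eTregs it was 26.4, 16.3, 23.3 and 23.1 CPM in replicates 1 to 4. Every Atg14-deficient eTreg library was above every control eTreg library. The log2 fold change was 1.35 (SE 0.28, unadjusted p = 3.5e-05, adjusted p = 0.0966 from edgeR), and an exact permutation test of the mean log2 CPM gave p = 0.0571 (two-sided), the smallest that 3 against 4 libraries allow. In control cTregs the region had 17.4, 14.8 and 24.1 CPM and in Atg14-deficient cTregs 31.9, 14.02, 21.6 and 23.1 CPM, so these groups overlapped (log2 fold change 0.29, SE 0.26, adjusted p = 1.0 from edgeR). The difference of the 2 genotype effects was 1.06 (SE 0.38, unadjusted p = 0.00917, adjusted p = 1.0 from edgeR's test). Control eTregs were thus the group that stood apart, and in them the region was less accessible than in control cTregs at the adjusted threshold, with a log2 fold change of -1.07 (SE 0.30, adjusted p = 0.0300 from edgeR), while Atg14-deficient eTregs and cTregs differed by -0.01 (SE 0.24).

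The contrasts at Uvrag +53.9 kb share the 3 control eTreg libraries and are not independent of each other. The log2 fold change in eTregs stayed between 1.20 and 1.50 and past the unadjusted threshold under all 21 alternatives that gave it, among them those without 1 library each. The cell state difference in controls lost the adjusted threshold without control cTreg replicate 1 (adjusted p = 0.0804 from edgeR), control cTreg replicate 3 (0.142), control eTreg replicate 1 (0.140) or control eTreg replicate 3 (0.0706). Regions of the fixed marker genes of the sorted cells also differed between these groups. Of the 176 tested regions of cTreg genes, 42 were less and 2 more accessible in control eTregs than in control cTregs at the adjusted threshold, and 24 were more and 1 less accessible in Atg14-deficient than in control eTregs at the unadjusted threshold (14.2%, against 6.36% of all regions). The summed accessibility of their 13 promoter regions was 267 to 312 CPM in control cTregs, 265 to 300 CPM in Atg14-deficient cTregs, 185 to 195 CPM in control eTregs and 183 to 236 CPM in Atg14-deficient eTregs. Of the 110 tested regions of eTreg genes, 5 were more and 2 less accessible in control eTregs than in control cTregs at the adjusted threshold. Their 8 promoter regions summed to 198 to 215 CPM in control cTregs and 188 to 211 CPM in control eTregs. In Atg14-deficient cells the sums were 206 to 243 CPM in cTregs and 196 to 244 CPM in eTregs, so the states overlapped in both genotypes. At the unadjusted threshold, 8 of the 110 regions were more and 1 less accessible in Atg14-deficient than in control eTregs (8.2%). Of the 75 tested regions of the 5 Treg genes, 10 were more and 0 less accessible (13.3%), with summed promoter values of 80.0 to 87.4 CPM in control and 103 to 107 CPM in Atg14-deficient eTregs. The part of these differences in the Uvrag result was not tested.

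**Figure D3:**
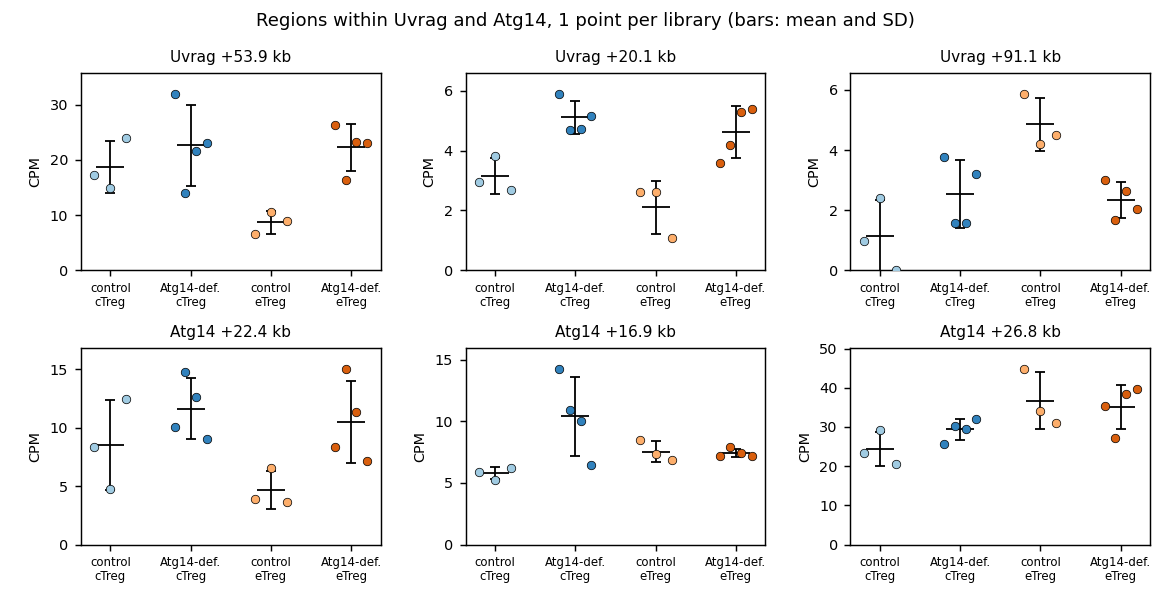
Accessibility (CPM, y axis from 0) of 3 regions within Uvrag and 3 within Atg14 in each library, by group on the x axis (def., deficient); horizontal bars give the mean and whiskers the SD. At Uvrag +53.9 kb the 3 control eTreg libraries, at 6.51 to 10.5 CPM, lie below the 11 others, which start at 14.02 CPM.

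The second region of Uvrag, +20.1 kb (chr7:99120842-99121185, 344 bp, intron), was weakly accessible, with 6 to 21 counts per library. It had 2.60, 2.62 and 1.08 CPM in control eTregs and 3.60, 4.18, 5.29 and 5.39 CPM in Atg14-deficient eTregs, without overlap (log2 fold change 1.18, SE 0.47, unadjusted p = 0.0178, adjusted p = 0.539 from edgeR). In cTregs it had 2.93, 3.83 and 2.67 CPM in control and 5.88, 4.67, 4.73 and 5.14 CPM in Atg14-deficient libraries, also without overlap, but did not pass the threshold (0.67, SE 0.45). The call in eTregs was lost without control eTreg replicate 3 (log2 fold change 0.82, unadjusted p = 0.122 from edgeR).

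Uvrag +91.1 kb (chr7:99049915-99050260, intron) showed the opposite arrangement. Control eTregs had 5.86, 4.20 and 4.51 CPM and all 4 Atg14-deficient eTreg libraries were lower, at 3.00, 1.67, 2.65 and 2.06 CPM, a log2 fold change of -1.02 (SE 0.58) that passed the unadjusted threshold with these 2 groups fitted alone but not with all libraries. Control cTregs had 0.978, 2.39 and 0 CPM and Atg14-deficient cTregs 3.78, 1.56, 1.58 and 3.21 CPM (0.98, SE 0.67). The difference of the 2 genotype effects was -2.00 (SE 0.89, unadjusted p = 0.0323, adjusted p = 1.0 from edgeR). It rested on 0 to 25 counts per library, and the unadjusted threshold was missed without control cTreg replicate 1 or 3, Atg14-deficient cTreg replicate 1 or 4, or control eTreg replicate 1 (edgeR's unadjusted p between 0.0593 and 0.0696). Without control cTreg replicate 2 it was -3.02, and the log2 fold change in cTregs was then 2.00 and past the unadjusted threshold. Uvrag +53.9 kb and Uvrag +91.1 kb were the 2 of 42 regions whose genotype effect differed between the states at the unadjusted threshold (4.76% against 3.05% of all regions), 1 in each direction, and 0 of 42 passed the adjusted threshold, as did 0.00% of all regions. DESeq2 gave the same 2 and 0.

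None of the other Uvrag regions passed a threshold by genotype. The promoter (chr7:99141003-99141671), which also had the highest counts of all 50 regions, differed by -0.06 (SE 0.10) in eTregs and by 0.00 (SE 0.11) in cTregs. A region 10.3 kb upstream of the start (chr7:99151281-99151750) was the most accessible of the 33 non-promoter regions tested, at 122 CPM per kb or the 99.4th percentile of all non-promoter regions, with 62.6 ± 4.06 CPM over the 3 control eTreg libraries and 55.4 ± 4.42 CPM over the 4 Atg14-deficient ones (SD; log2 fold change -0.18, SE 0.13). Summed over its 23 regions, Uvrag reached 354 ± 19.3 CPM over the 3 control eTreg libraries and 356 ± 3.87 CPM over the 4 Atg14-deficient ones (SD), which overlapped.

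**Figure D4:**
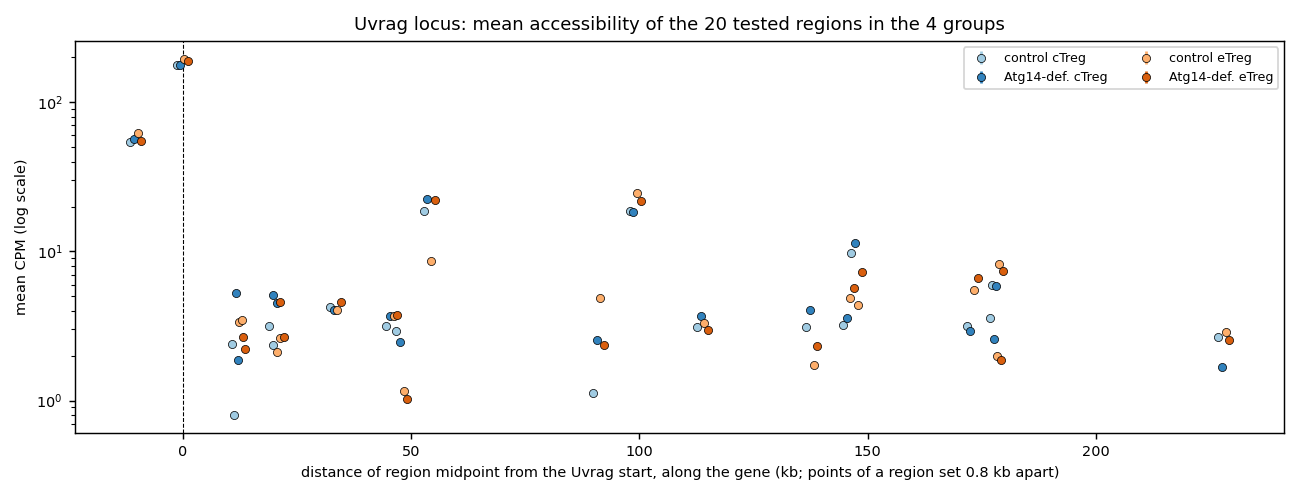
Mean accessibility (CPM, log scale) of the 20 tested Uvrag regions in the 4 groups against distance of the region midpoint from the Uvrag start along the gene (kb; points of a region are set 0.8 kb apart). The promoter and the region 10.3 kb upstream carry the highest values in all groups, and at +53.9 kb the control eTreg point lies below the points of the 3 other groups.

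At Atg14 itself (chr14:47540893-47568434, reverse strand), the gene deleted in the study, the sources used here do not say which exon lies between the loxP sites. Its regions overlap exons 1, 5, 8 and 10 of the 10 exons of its RefSeq transcript. None of them passed a threshold on the less accessible side with the floxed genotype, and whether any lies in the deleted stretch is not known from these sources. The promoter (chr14:47567952-47568659, exon 1) had 19.8, 21.5 and 31.2 CPM in control and 22.2, 20.9, 26.7 and 29.3 CPM in Atg14-deficient eTregs, and 22.5, 27.8 and 35.2 CPM in control and 24.4, 25.7, 16.8 and 20.2 CPM in Atg14-deficient cTregs. The libraries overlapped in both states (log2 fold change 0.03, SE 0.22, in eTregs and -0.38, SE 0.23, in cTregs).

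The Atg14 +22.4 kb region (chr14:47545786-47546239) covers the whole of exon 8 (91 coding bases) and the intron next to it. It had 3.90, 6.56 and 3.60 CPM in control eTregs and 8.39, 15.1, 11.4 and 7.19 CPM in Atg14-deficient eTregs. The groups did not overlap (log2 fold change 1.15, SE 0.37, unadjusted p = 0.00431, adjusted p = 0.428 from edgeR; exact permutation p = 0.0571, two-sided). In cTregs it had 8.31, 4.79 and 12.5 CPM in control and 10.1, 14.8, 12.6 and 8.99 CPM in Atg14-deficient libraries, which overlapped (0.49, SE 0.36, and 0.83 without control cTreg replicate 3, then past the unadjusted threshold), and the difference of the effects was 0.66 (SE 0.51).

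The Atg14 +16.9 kb region (chr14:47551355-47551722) covers 131 coding bases of exon 5. In cTregs it had 5.87, 5.26 and 6.24 CPM in control and 14.3, 10.9, 9.99 and 6.42 CPM in Atg14-deficient libraries, without overlap, although the lowest Atg14-deficient value was close to the highest control value (log2 fold change 0.84, SE 0.33, unadjusted p = 0.0176, adjusted p = 1.0 from edgeR; exact permutation p = 0.0571, two-sided). The call was lost without control cTreg replicate 2 (0.77, unadjusted p = 0.0584 from edgeR) or Atg14-deficient cTreg replicate 1 (0.66, unadjusted p = 0.0700 from edgeR). The 3 Treg marker promoter regions also differed in cTregs, with sums of 109 to 119 CPM in control and 123.4 to 149.3 CPM in Atg14-deficient libraries, and 4 of 75 tested Treg marker regions were more and 2 less accessible (8.0%, against 3.34% of all regions). Their part in the Atg14 +16.9 kb result was not tested. In eTregs the 7 libraries lay between 6.85 and 8.46 CPM, with a log2 fold change of -0.02 (SE 0.32).

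The region over the last exon, Atg14 +26.8 kb, had the highest mean CPM of the Atg14 regions over the 14 libraries (31.5 CPM, against 24.6 CPM at the promoter), although in control cTregs the promoter was higher (28.5 against 24.4 CPM). It had 23.5, 29.2 and 20.5 CPM in control cTregs, 25.6, 30.4, 29.4 and 32.1 CPM in Atg14-deficient cTregs, 44.9, 34.1 and 31.0 CPM in control eTregs and 35.4, 27.2, 38.4 and 39.8 CPM in Atg14-deficient eTregs. Control eTregs were above control cTregs in every library (log2 fold change 0.56, SE 0.20, unadjusted p = 0.00942, adjusted p = 0.101 from edgeR). The region 29.6 kb upstream of Atg14 was weak, with 1.57 to 8.31 CPM, and differed by -0.48 (SE 0.48) in eTregs and -0.68 (SE 0.46) in cTregs with Atg14 loss. At this gene the groups differ by the floxed allele as well as by the loss of Atg14, and the 2 cannot be told apart.

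Pik3c3 (chromosome 18, 30265615 to 30348126, forward strand), which encodes the catalytic subunit, had the second most accessible promoter of the 8 genes. This promoter (30272597 to 30273051), at an annotated protein-coding start inside the gene, had 106, 92.4 and 91.8 CPM in control cTregs, 107, 89.9, 90.2 and 77.7 CPM in Atg14-deficient cTregs, 93.0, 90.8 and 109 CPM in control eTregs and 91.4, 115, 97.4 and 79.4 CPM in Atg14-deficient eTregs. All 4 groups overlapped. The log2 fold change with Atg14 loss was -0.04 (SE 0.13) in eTregs and -0.09 (SE 0.13) in cTregs, and the cell states differed by 0.01 (SE 0.14) in control and 0.07 (SE 0.12) in Atg14-deficient cells. The intronic region at +39.0 kb (5.71 CPM on average) and the region at +93.0 kb beyond the gene (14.1 CPM) had log2 fold changes of at most 0.35 (SE 0.42) in size with genotype and passed no threshold. The fourth region, 3.9 kb upstream of the annotated start at the first base of the gene, had 0 to 12 counts per library and was not tested.

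Pik3r4, for the regulatory kinase Vps15, was the only one of the 8 genes with a promoter that differed between cell states at the adjusted threshold. The promoter (chr9:105642705-105643173) had 53.3, 72.0, 56.4 and 74.0 CPM in Atg14-deficient eTregs and 37.4, 33.5, 37.9 and 55.2 CPM in Atg14-deficient cTregs. A single cTreg library, replicate 4, reached above the lowest eTreg library, and each eTreg library was above the cTreg library of the same number. The log2 fold change was 0.63 (SE 0.18, adjusted p = 0.0268 from edgeR), and 0.64 (SE 0.13, adjusted p = 0.00029 from edgeR) with same-numbered libraries as a block. Without the block, the adjusted threshold was missed without Atg14-deficient cTreg replicate 1 (adjusted p = 0.0750 from edgeR), 2 (0.0810) or 3 (0.0905) or Atg14-deficient eTreg replicate 2 (0.0593) or 4 (0.0961). In control cells it had 73.5, 83.2 and 61.3 CPM in eTregs and 56.5, 64.6 and 33.0 CPM in cTregs, a log2 fold change of 0.47 (SE 0.20, adjusted p = 0.182 from edgeR). Each control eTreg library was also above the control cTreg library of the same number. With same-numbered control libraries as a block, the log2 fold change was 0.52 (SE 0.14, adjusted p = 0.00879 from edgeR). That is past the adjusted threshold, although the numbers may not pair the control libraries. The 2 cell state differences were not shown to differ (0.16, SE 0.27, unadjusted p = 0.562 from edgeR). The region at +51.0 kb, beyond the 3′ end of the gene, had at most 12 counts per library and 3.60, 3.35, 3.18 and 2.06 CPM in Atg14-deficient eTregs against 0.840, 0, 1.05 and 0 CPM in Atg14-deficient cTregs (adjusted p = 0.0641 from edgeR). It reached the minimum of the low-count filter only in 3 Atg14-deficient eTreg libraries and was thus tested through the group in which it is high, so its p-value and direction are a description.

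Becn1, for the scaffold Beclin 1, had a single region, its promoter (chr11:101301929-101302458), with 14 to 70 counts per library. It had 10.4, 10.2 and 11.2 CPM in control and 8.99, 13.4, 11.1 and 18.0 CPM in Atg14-deficient eTregs, and the log2 fold change was 0.28 (SE 0.30). In Atg14-deficient cells, eTregs were higher than cTregs (10.5, 6.23, 8.94 and 8.35 CPM) at the unadjusted threshold (0.60, SE 0.29, unadjusted p = 0.0483, adjusted p = 0.186 from edgeR), with overlapping groups. Over the 14 libraries the log2 CPM of the Becn1 and Pik3r4 promoters had a Pearson r of 0.70, the highest among the 36 pairs of promoters, whose r ranged down to -0.65 (Ambra1 with Rubcn downstream). The libraries share cell state and depth, and r is given as a description.

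Nrbf2, which stabilizes the Atg14-containing assembly, had its promoter (chr10:67284687-67285608) at 56.5 ± 2.07 CPM over the 3 control eTreg libraries and 65.0 ± 9.30 CPM over the 4 Atg14-deficient ones (SD), and at 64.3 ± 12.0 and 69.2 ± 4.76 CPM in cTregs (log2 fold change 0.20, SE 0.14, in eTregs and 0.12, SE 0.14, in cTregs). Summed over its 5 regions, Nrbf2 had 64.9 to 67.7 CPM in control eTregs and 72.8 to 87.9 CPM in Atg14-deficient eTregs. Such sums were not tested and were not set against those of all genes. No single Nrbf2 region passed a threshold by genotype, and the highest non-promoter region, 29.9 kb upstream, had 3.90, 4.20 and 4.33 CPM in control and 2.40, 5.02, 9.00 and 9.25 CPM in Atg14-deficient eTregs. Its log2 fold change was 0.64 (SE 0.43).

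Ambra1, the Beclin 1 partner, had its promoter (chr2:91729954-91730710) at 13.0 ± 4.18 CPM over the 3 control eTreg libraries and 15.7 ± 2.15 CPM over the 4 Atg14-deficient ones (SD), and at 13.9 ± 3.01 and 12.9 ± 1.53 CPM in cTregs. Its most accessible region was in an intron at +105.1 kb (17.2 ± 3.74 CPM in control and 21.9 ± 7.58 CPM in Atg14-deficient eTregs; log2 fold change 0.35, SE 0.25), which lies nearer to the start of Chrm4 than to that of Ambra1. None of its 4 tested regions passed a threshold in any of the 5 contrasts. Rubcn, the restraining partner, had no region beyond its 2 promoters. The upstream one (chr16:32877490-32877988) also holds the start of Fyttd1, on the other strand, with 31.1 ± 4.52 CPM over the 3 control eTreg libraries and 31.8 ± 4.72 CPM over the 4 Atg14-deficient ones (SD). The downstream one (chr16:32867974-32868552) had 32.3 ± 4.16 and 27.3 ± 3.05 CPM in these groups (log2 fold change -0.25, SE 0.18).

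The loci were also compared between cell states. Markers of other lymphocytes also differed between the states, with summed values of their 2 promoter regions of 13.5 to 22.2 CPM in the cTreg and 4.37 to 12.0 CPM in the eTreg libraries, mostly from Cd8b1, a coreceptor gene of CD8 T cells, while the weaker Klrb1c promoter, of an NK cell receptor gene, had 0.964 CPM in control cTregs and 1.97 CPM in control eTregs on average. Of the 8 tested regions of B cell genes, 3 were more and 0 less accessible in control eTregs than in control cTregs at the unadjusted threshold, and 2 and 0 in Atg14-deficient cells, with 1 in each genotype also past the adjusted threshold. The part of these markers in the cell state results was not tested. In control cells 7 of the 42 regions (16.7%) passed the unadjusted threshold between eTregs and cTregs against 18.2% of all regions, and 1 of 42, Uvrag +53.9 kb, passed the adjusted threshold against 5.30%. Of the 7 regions, 3 were more accessible in eTregs (Atg14 +26.8 kb and the Uvrag regions at +91.1 and +12.4 kb) and 4 less (Atg14 +22.4 kb, Nrbf2 -29.9 kb and the Uvrag regions at +147.6 and +53.9 kb). Uvrag +12.4 kb would not have passed the low-count filter without the control eTreg libraries, the group in which it is high, so its direction is a description. Uvrag +147.6 kb had 10.8, 8.62 and 9.81 CPM in control cTregs and 4.55, 4.46 and 4.14 CPM in control eTregs, without overlap (log2 fold change -1.15, SE 0.38, adjusted p = 0.0752 from edgeR). In Atg14-deficient cells 4 of 42 (9.52%) passed the unadjusted threshold against 23.1%, all more accessible in eTregs. Pik3r4 +51.0 kb, 1 of these 4, passed the low-count filter only through Atg14-deficient eTregs, which fixed its direction. Of the 42 regions 1, the Pik3r4 promoter, passed the adjusted threshold against 9.81%. With same-numbered Atg14-deficient libraries as a block, 2 of 42 regions passed the adjusted threshold (4.76%, against 15.5% of all regions in the same fit), the second being Uvrag +172.9 kb (log2 fold change 1.25, SE 0.44, adjusted p = 0.0431 from edgeR), which had 5.99, 5.86, 7.41 and 7.19 CPM in Atg14-deficient eTregs and 3.78, 1.56, 1.58 and 4.82 CPM in Atg14-deficient cTregs. Groups did not overlap in 10 of 42 regions in control cells (26.0% of all regions) and in 3 of 42 in Atg14-deficient cells (15.5%).

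**Figure D5:**
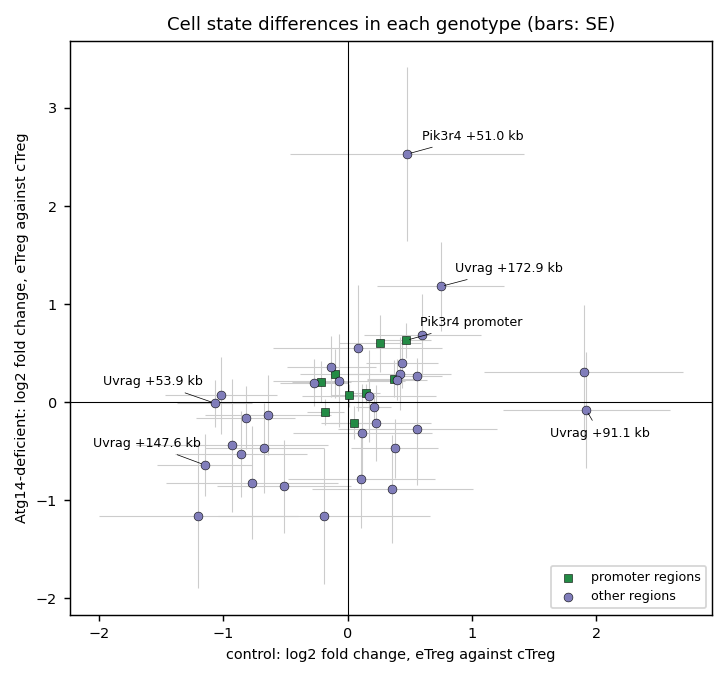
Log2 fold change of eTregs against cTregs in control (x axis) and in Atg14-deficient cells (y axis) for the 42 tested regions, with promoters as squares, other regions as circles and SE as whiskers. Among promoters, that of Pik3r4 lies at 0.47 and 0.63, that of Becn1 at 0.26 and 0.60 and the upstream one of Rubcn at 0.37 and 0.24, and Uvrag +53.9 kb lies at -1.07 in control and -0.01 in Atg14-deficient cells.

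The promoters whose accessibility was most like that of the Atg14 promoter over the 14 libraries, by Pearson r of log2 CPM among the 14281 tested promoter regions, were those of Fiz1 (0.89), Nelfcd (0.79) and Cemip2 (0.79). For the Pik3c3 promoter they were Sec61g (0.88), Spidr (0.86) and Fzd7 (0.85). The Atg14 and Pik3c3 promoters themselves had an r of 0.05.

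The genes around the complex were described by 3 fixed lists. For the initiation kinase complex and upstream regulators of Vps34 (Ulk1, Rb1cc1, Prkaa1, Bcl2 and others), 4 of 83 tested regions were more and 0 less accessible in Atg14-deficient eTregs at the unadjusted threshold (4.8%, against 6.36% of all regions), and 3 were more and 2 less accessible in cTregs (6.0%, against 3.34%). For PI3P readers and converters (Wipi1, Eea1, Pikfyve and others) these numbers were 2 and 0 of 68 regions in eTregs (2.9%) and 2 and 0 in cTregs (2.9%). For the PI3P phosphatases of the myotubularin family they were 2 and 0 of 48 in eTregs (4.2%) and 1 and 1 in cTregs (4.2%). None of these regions passed the adjusted threshold by genotype. The medians in eTregs were 0.18, 0.19 and 0.13, against 0.02 at the 8 loci and 0.06 over all regions.

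Between cell states, 5.30% of all regions passed the adjusted threshold in control cells and 9.81% in Atg14-deficient cells. Among the 83 regions of regulators, 1 was more and 3 were less accessible in control eTregs than in control cTregs, and 4 and 6 in Atg14-deficient cells. Among the 68 regions of PI3P readers and converters these numbers were 2 and 6 in control and 4 and 7 in Atg14-deficient cells. Most of these regions were assigned to Eea1 and lay 24.2 to 300.1 kb from its start, on either side. Among the 48 regions of PI3P phosphatases the numbers were 1 and 0 in control and 0 and 1 in Atg14-deficient cells. The region at the start of Prkaa1, for a catalytic subunit of AMPK, which phosphorylates Beclin 1 and Vps34, had 26.2 ± 9.38 CPM in control eTregs (SD, n = 3) and 53.8 ± 7.45 CPM in control cTregs (log2 fold change -1.01, SE 0.21, adjusted p = 0.00406 from edgeR). It was also lower in eTregs among Atg14-deficient cells (-0.68, SE 0.18, adjusted p = 0.0148 from edgeR). A region 19.7 kb into Wipi1, whose product binds PI3P on forming autophagosomes, had 4.35 ± 1.50 against 14.5 ± 3.73 CPM in control cells (-1.72, SE 0.36, adjusted p = 0.00538 from edgeR). A region in the body of Sh3glb1 (chr3:144703977-144704335), for a partner of Uvrag, went the other way, at 24.2 ± 3.71 against 9.47 ± 2.03 CPM (1.32, SE 0.31, adjusted p = 0.0112 from edgeR). These 3 regions were picked from those past the threshold after their values were seen.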

How the data were processed

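Per the study's methods, the authors trimmed the reads, aligned them, removed duplicates, shifted them for Tn5, kept nucleosome-free fragments, called peaks with MACS2 per sample, kept peaks found in at least 50% of replicates and deposited raw counts per merged region. The methods name mm9, the submitters' processing notes mm10. All 67207 regions on chromosomes fitted GRCm38, and 10123 of 21740 protein-coding starts had a region within 200 bp (757 after all regions were shifted), so GRCm38 with RefSeq genes was used. Of counts above 0, 81.4% were even, so 2 counts often stand for 1 fragment and counting errors are larger than the counts imply.

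The counts were fitted for all 14 libraries in 1 model by group with edgeR 4.0.16 (quasi-likelihood, robust, library totals as scaling, filterByExpr) in R 4.3.3. Each edgeR SE is the size of the log2 fold change divided by the square root of the F statistic of its test. It is therefore approximate, most of all for small log2 fold changes. Tested alternatives were TMM, loess offsets (limma 3.58.1), DESeq2 1.42.0, other filters, replicate blocks and each library left out. Scripts were tested on simulated counts. Promoter sequences are the 250 bases before the RefSeq start, other sequences 300 bases around the midpoint. Becn1 and Pik3c3 were not matched in the promoter table. The 4 same-numbered pairs of Atg14-deficient eTreg and cTreg libraries deviated together (r = 0.12 to 0.24), so the blocked value is given beside that comparison. The control libraries of the same number had r = 0.05 to 0.21 and may not be pairs, and their blocked value is also given at the Pik3r4 promoter.

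The 8 genes and the gene lists were chosen with earlier results of these data known. One further gene list is not reported here. Described regions were the promoter and the highest non-promoter region of each gene, those past a threshold, and some named after their values were seen (Uvrag +91.1 kb, and regions counted by non-overlap).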

Additional observations from a re-analysis of the deposited data

Results flagged for a closer look

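At the Nrbf2 promoter, 1 of the 4 Atg14-deficient cTreg libraries, replicate 2, stood at 76.3 CPM against 66.3, 67.8 and 66.5 CPM in the others, a gap of 0.851 of the range of the group. This was 1 of 42 groups of 4 libraries examined over 21 regions, and chance gives such a gap in about 1 of 20 groups.

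The effect of Atg14 loss differed between eTregs and cTregs at Uvrag +53.9 kb (difference of log2 fold changes 1.06, SE 0.38, unadjusted p = 0.00917 from edgeR) and, in the other direction, at Uvrag +91.1 kb (-2.00, SE 0.89, unadjusted p = 0.0323 from edgeR). Both had an adjusted p of 1.0 from edgeR.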

How the results depend on the processing

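Precision was limited by depth (a median of 20.5 counts per library over the 42 regions, 23.0 over all) and by 3 control libraries per state. For Atg14 loss in eTregs, 3 or 4 regions were called under the alternatives and 2 to 4 without 1 library. In cTregs the count went from 1 to 2 with no filter on low counts or with the 2 groups alone, and ranged from 0 to 3 without 1 library. For the difference between states of the genotype effect it was 2 or 3, and 1 to 3 without 1 library (1 without control cTreg replicate 3, Atg14-deficient cTreg replicate 1 or control eTreg replicate 1). Between cell states the count in control cells went from 1 to 2 with DESeq2 or with at least 10 counts in every library, and in Atg14-deficient cells to 2 with DESeq2 and to 0 with members within the gene body alone, since the midpoint of the Pik3r4 promoter lies upstream of the start. Without 1 library both ranged from 0 to 2. The cause of the other changes was not tested.

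With same-numbered eTreg and cTreg libraries as a replicate block, 4 regions were called between states in control cells (Uvrag +53.9 kb, Uvrag +147.6 kb, Atg14 +26.8 kb and the Pik3r4 promoter), where r between pairs was 0.05 to 0.21, so that the numbers may not pair these samples, and 2 in Atg14-deficient cells. Blocking the genotype comparisons by number left 3 and 1 calls, and these libraries (r from -0.22 to 0.09) share only a number.

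Of single values past a threshold, 147 alternatives kept the call and 17 lost it, each of these by leaving out 1 library, and no value changed sign while called. Values not past it passed it in 17 cases, among them Pik3r4 +51.0 kb between states in Atg14-deficient cells (adjusted p = 0.0305, for a region that the low-count filter kept only through Atg14-deficient eTregs) and Uvrag +91.1 kb between states in control cells (adjusted p = 0.0472), both with DESeq2. Over all regions the adjusted threshold was passed by 14 regions in eTregs, 10 in cTregs, 3251 between states in control and 6021 in Atg14-deficient cells, against 48, 16, 4185 and 7185 with DESeq2, 1, 0, 1740 and 3483 with at least 10 counts in every library, and 6367 and 9495 between states with the block.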
